A study of Homo sapiens with 8 samples.

Results

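A set of 10 genes that restrain canonical WNT signalling were followed through the methylation peaks of 8 neuroblastoma (NB) cell lines. They are the secreted antagonists *SFRP1*, *SFRP2*, *SFRP4*, *SFRP5*, *FRZB*, *DKK1*, *DKK2*, *DKK3* and *WIF1*, and the intracellular scaffold gene *APC*, which is 10 of the 64486 genes annotated on GRCh37 and 10 of the 20176 protein-coding ones. They were taken from a list of names and not by their peaks, though the choice was made with earlier results of these data known. A gene was given a promoter peak in a line when a peak of that line overlapped, by at least 1 bp, a window that starts 1500 bp before and ends 1000 bp after any of its annotated transcription start sites (TSS). It was given a gene body peak when a peak overlapped the annotated gene. The canonical window is the one around the TSS of the gene's canonical transcript.

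NB is a childhood tumor of the sympathetic nervous system, and its aggressive form often carries extra copies of the *MYCN* oncogene (*MYCN* amplification, MNA). The data come from MBD-seq, in which sheared genomic DNA is captured with the methyl-CpG-binding domain of MBD2, so that reads pile up into peaks where CpG dinucleotides are methylated. By their labels, CHP-902R, IMR-32, LAN-2 (written LA-N-2 in the sample titles) and N206 are MNA, while SK-N-AS, SH-SY5Y, SJNB-1 and CLB-GA have *MYCN* as single copy. All are established cultures of tumor cells with no treatment in this experiment, with 1 library per line, so the lines stand in for replicates within each *MYCN* group (4 each) and a p-value measures the spread between lines. CHP-902R is MNA by its label and by the supplement of the study, but the results text names only the other 3 MNA lines in its comparison, so values without CHP-902R are also given for *WIF1* and *SFRP2*. Expression was not analysed here, so the identity of the lines could not be checked against marker genes.

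WNT ligands are secreted proteins that bind a Frizzled receptor together with the co-receptor LRP5 or LRP6, after which beta-catenin escapes degradation and switches on target genes in the nucleus. The SFRP proteins, FRZB and WIF1 bind the ligands outside the cell, the DKK proteins act mainly on the LRP co-receptors, and APC holds together the complex that marks beta-catenin for degradation. Several of these genes are known for promoter methylation in epithelial tumors, and the deposited lists show where methylated DNA was captured at them in NB cells.

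The lists held 88496 to 112412 peaks for MNA and 70816 to 86079 for single copy lines, and the lowest score in each list was 50, the authors' score that rises as the p-value of a peak falls (a score of 50 corresponds to a p-value of 1e-05). They hold no read counts, so the depth of each line is unknown here and a missing peak means no peak at an unknown depth. Of the protein-coding genes, 38.6% ± 2.17 carried a promoter peak in an MNA line and 35.2% ± 2.34 in a single copy line (SD, n = 4 lines per group).

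A promoter peak in at least 1 line was seen at 6 of the 10 genes (*SFRP1*, *SFRP2*, *FRZB*, *DKK3*, *WIF1* and *APC*), against 73.9% of the protein-coding genes and 55.6% of all genes. A promoter peak in at least 4 lines was found for 3 of them, *DKK3* in all 8 lines, *WIF1* in 6 and *SFRP1* in 5, against 39.5% of the protein-coding genes and 21.3% of all genes. At least 6 lines were reached by 2 of the 10 genes, against 21.6% of the protein-coding genes. The 10 genes and the protein-coding genes both had a median of 2 lines. The median number of annotated TSS per gene was 3 against 5. In the canonical window alone, 6 of the 10 showed a peak in at least 1 line, against 49.2% of the protein-coding genes. A gene body peak in at least 1 line was found for 8 of the 10, against 88.3%, and *SFRP5* and *DKK1* were the 2 genes with neither kind of peak in any line, which held for 9.94% of the protein-coding genes.

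**Figure D1:**
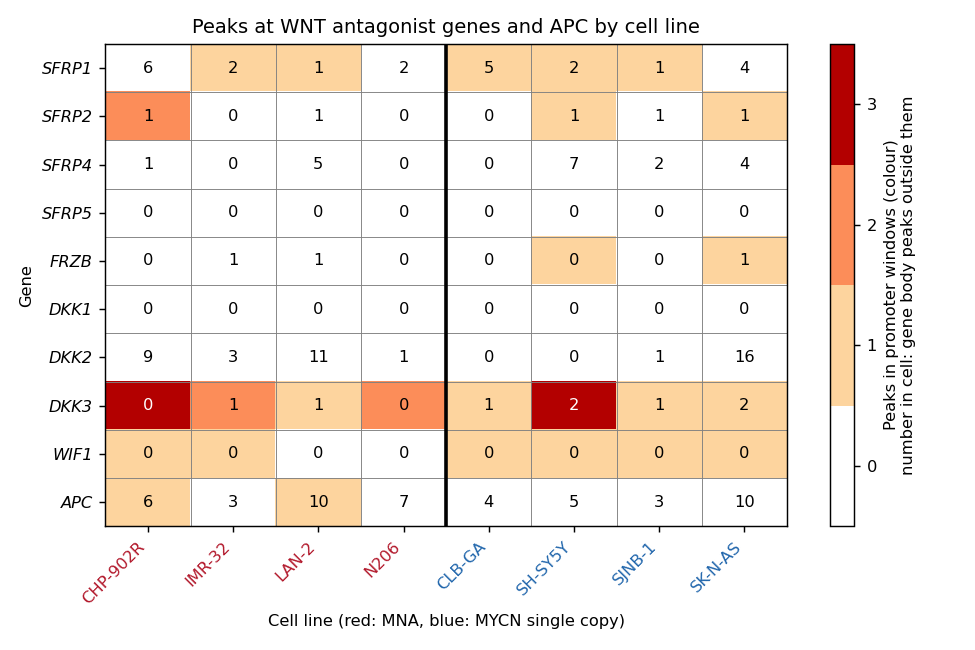
Peaks at the 10 genes (rows) in the 8 lines (columns, MNA left of the thick line). The colour gives the number of peaks in promoter windows and the number in the cell the gene body peaks outside them: the *DKK3* row is coloured in all 8 lines, *WIF1* in 6, and the *SFRP5* and *DKK1* rows hold only 0.

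Which of the genes carried a promoter peak differed from line to line. SH-SY5Y had the most, 5 genes (*SFRP1*, *SFRP2*, *FRZB*, *DKK3* and *WIF1*), and N206 the fewest, with *DKK3* alone. CHP-902R had 4 (*SFRP2*, *DKK3*, *WIF1* and *APC*) and SK-N-AS also 4 (*SFRP2*, *FRZB*, *DKK3* and *WIF1*). IMR-32, CLB-GA and SJNB-1 each had *SFRP1*, *DKK3* and *WIF1*, and LAN-2 had *SFRP1*, *DKK3* and *APC*. An MNA line had 2.75 ± 1.26 of the 10 genes and a single copy line 3.75 ± 0.957 (SD, n = 4 each), with ranges of 1 to 4 and 3 to 5 that overlap. With all lists cut to the length of the shortest (the 70816 peaks of highest score) the means were 1.75 and 3.5. The share of protein-coding genes per line was not counted for the cut lists, so these 2 means stand without a background. *SFRP2* and *FRZB* were in the same state, both with or both without a promoter peak, in 7 of the 8 lines, with both peaks present in 2 of the 7 and both absent in 5. It is the highest count of the 15 pairs of the 6 genes with promoter peaks, the others running from 2 to 6, and was not tested. Counting every peak in a promoter window or gene body, the genes held 180 peaks, 33 of them in promoter windows. The numbers per line ran from 12 in N206 and SJNB-1 to 42 in SK-N-AS.

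*SFRP2*, a secreted frizzled-related protein that binds WNT ligands, lies on the minus strand of chromosome 4 (GRCh37, 154701743 to 154710235) with 1 annotated TSS. It had promoter peaks in CHP-902R, SH-SY5Y and SK-N-AS, at 2 places. Downstream of the TSS, over the end of the coding part of exon 1 and the start of intron 1, CHP-902R had a peak from 465 to 1043 bp (score 73.1, higher than 54.4% of its list) and SK-N-AS one from 487 to 857 bp (score 57.5, higher than 25.3%). Upstream, CHP-902R had a peak from -1472 to -677 bp (score 70.04) and SH-SY5Y one from -1860 to -1286 bp (score 61.9, higher than 27.9%). Peaks thus covered 53.3% of the promoter window in CHP-902R, 14.8% in SK-N-AS, 8.60% in SH-SY5Y and 0% in the other 5 lines. The groups overlapped, with a peak in 2 of 4 single copy and 1 of 4 MNA lines (Fisher's exact test, two-sided, p = 1). The stretch shared by CHP-902R and SK-N-AS is shown for its density of CpG, 22 in 300 bases, written here in capitals as in all sequences that follow. It is chr4:154709399-154709698, given 5′ to 3′ on the minus strand.
SFRP2 promoter: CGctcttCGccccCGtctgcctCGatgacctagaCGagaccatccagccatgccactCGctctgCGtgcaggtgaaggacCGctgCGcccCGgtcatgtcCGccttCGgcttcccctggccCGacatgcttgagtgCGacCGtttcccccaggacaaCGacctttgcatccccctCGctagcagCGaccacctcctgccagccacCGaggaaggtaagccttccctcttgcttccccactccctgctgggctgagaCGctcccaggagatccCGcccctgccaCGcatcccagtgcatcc

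The peak found at *SFRP2* in the most lines was not at its promoter but at its other end, over the coding part of exon 3 and the adjoining untranslated part. It was present in 5 lines, from 7420 to 7776 bp downstream of the TSS in all of them. Its score was 117 in CHP-902R (higher than 92.2% of the list), 110 in LAN-2 (83.6%), 144 in SK-N-AS (97.8%), 83.6 for SH-SY5Y (67.7%) and 62.2 for SJNB-1 (39.8%). The 2 lines of these 5 without a promoter peak were LAN-2 and SJNB-1, so that the exon 3 peak was found in each line that had a promoter peak and in 2 more. IMR-32, N206 and CLB-GA had no peak at the gene, and their nearest peaks lay 1.89, 13.4 and 19.8 kb away. The CpG of this interval were sparser than at the promoter, 16 in 357 bp or 4.48 per 100 bp. Its coding stretch with the most CpG, chr4:154702608-154702807 on the minus strand, holds 10 in 200 bases.
SFRP2 exon 3: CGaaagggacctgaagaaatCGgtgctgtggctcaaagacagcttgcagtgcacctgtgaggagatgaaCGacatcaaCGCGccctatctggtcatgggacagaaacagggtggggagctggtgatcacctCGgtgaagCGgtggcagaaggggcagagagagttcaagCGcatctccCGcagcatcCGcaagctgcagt

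*FRZB*, a relative of the SFRP genes whose protein also binds WNT ligands, lies on the minus strand of chromosome 2 (183698002 to 183731365) and has 1 TSS. Peaks at its promoter were found in 2 single copy lines. In SH-SY5Y the peak ran from 7 to 649 bp downstream of the TSS (score 134, higher than 95.0% of the list), and in SK-N-AS from 343 to 642 bp (score 97.1, higher than 86.2%). These peaks covered 25.7% and 12.0% of the promoter window, against 0% in the other 2 single copy lines and in the 4 MNA lines. The mean was 9.43% ± 12.2 over the single copy lines and 0% over the MNA lines (SD, n = 4; exact permutation test, two-sided, p = 0.429), and 0 of 4 against 2 of 4 lines gave p = 0.429 by Fisher's exact test, two-sided. In 2 MNA lines, IMR-32 and LAN-2, the gene instead had a peak in intron 1, from 5002 to 5272 bp downstream, at a low CpG content of 1.48 per 100 bp. The interval shared by SH-SY5Y and SK-N-AS is shown because both peaks lie over the first coding exon and the start of intron 1. It is chr2:183730723-183731022 on the minus strand and holds 17 CpG in 300 bases.
FRZB promoter: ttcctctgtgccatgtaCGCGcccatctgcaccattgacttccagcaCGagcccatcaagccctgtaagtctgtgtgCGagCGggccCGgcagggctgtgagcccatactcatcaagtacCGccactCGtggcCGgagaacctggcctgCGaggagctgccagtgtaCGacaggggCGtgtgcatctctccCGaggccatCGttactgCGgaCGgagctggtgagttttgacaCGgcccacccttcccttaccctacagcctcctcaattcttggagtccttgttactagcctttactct

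*SFRP5*, another secreted frizzled-related protein, lies on the minus strand of chromosome 10 (99526508 to 99531756, a gene of 5.25 kb with 1 TSS). No line had a peak in its promoter window or gene body. The nearest peak lay 5.89 kb away in N206, the closest, and 45.7 kb away in LAN-2, the farthest. The promoter window was not poor in CpG, at 5.60 per 100 bp, more than in 71.5% of the protein-coding genes, and all of its 45 bp stretches occur once in GRCh37. The 200 bases ending just before the TSS, chr10:99531762-99531961 on the minus strand, are shown as a CpG-rich promoter at which no methylated DNA was called. They hold 20 CpG.
SFRP5 promoter, no peak: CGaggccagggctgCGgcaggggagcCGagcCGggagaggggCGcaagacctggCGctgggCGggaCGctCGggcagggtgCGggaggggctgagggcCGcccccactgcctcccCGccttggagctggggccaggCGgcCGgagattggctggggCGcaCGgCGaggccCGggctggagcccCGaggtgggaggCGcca

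*SFRP1*, which gave the family its name, lies on the minus strand of chromosome 8 (41119481 to 41166992) and had a promoter peak in 5 lines. In 4 of them the peak lay upstream of the canonical TSS, in LAN-2 from -2680 to -758 bp (score 113, higher than 85.0% of the list), in CLB-GA from -1926 to -991 bp (score 74.0, 50.9%), in SJNB-1 from -1854 to -1015 bp (score 58.0, 27.6%) and in SH-SY5Y from -1590 to -1159 bp (score 54.6, 11.7%). In IMR-32 it lay in intron 1, from 2036 to 2709 bp downstream, within the window of an alternative TSS (score 61.3). The interval common to the 4 upstream peaks, 432 bp long, held only 3.01 CpG per 100 bp, whereas the promoter window as a whole held 7.20, more than in 88.7% of the protein-coding genes. N206 had a peak farther upstream that touched the merged region of these peaks but lay outside the promoter window.

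Peaks covered 13.5% of the *SFRP1* promoter windows in IMR-32, 14.9% in LAN-2, 10.2% in CLB-GA, 9.75% in SJNB-1, 6.86% in SH-SY5Y, and 0% in CHP-902R, N206 and SK-N-AS. The group means, 7.11% ± 8.23 for MNA and 6.71% ± 4.72 for single copy lines (SD, n = 4), differed by less than the spread between lines (exact permutation test, two-sided, p = 1). For the canonical window, 1 MNA and 3 single copy lines had a peak (Fisher's exact test, two-sided, p = 0.486). All 8 lines had a peak in the gene body. The 28 peaks at the gene formed 16 merged regions, 15 of them in introns, and intron 2 held 4 regions that 3 lines shared, so a line without a promoter peak, such as CHP-902R with 6 peaks or SK-N-AS with 4, was not without methylated DNA at the gene.

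*SFRP4*, a member of the same family on the minus strand of chromosome 7, had no promoter peak in any line. Its annotation runs over 120 kb (37945534 to 38065297) because of long alternative transcripts, and of its 19 gene body peaks 1, in LAN-2, lay within the canonical transcript and 18 lay upstream of it, in a stretch that in part overlaps the gene *EPDR1*. There were 5 peaks in LAN-2, 1 in CHP-902R, 7 for SH-SY5Y, 4 for SK-N-AS, 2 for SJNB-1 and 0 for IMR-32, N206 and CLB-GA. The region with the most lines, 4 (SK-N-AS, SH-SY5Y, SJNB-1 and LAN-2), lay from -17518 to -17117 bp, and only 44.4% of its 45 bp stretches occur once in GRCh37.

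*WIF1* encodes WNT inhibitory factor 1, which binds WNT ligands through a domain unrelated to that of the SFRP proteins. It lies on the minus strand of chromosome 12 (65444406 to 65515085) and had a promoter peak at the same place in 5 lines, including all 4 single copy lines. The peak ran from 65515677 to 65516268 in CLB-GA (score 54.7, higher than 11.4% of the list), from 65515664 to 65516335 for SK-N-AS (112, 93.1%), from 65515565 to 65516195 for SH-SY5Y (66.6, 38.7%) and from 65515594 to 65516246 for SJNB-1 (142, 97.2%). Of the MNA lines only IMR-32 had it, from 65515677 to 65516295 (72.5, 52.2%). The 5 peaks shared 519 bp, from -1110 to -592 bp, with 34 CpG or 6.55 per 100 bp, and 88.8% of the 45 bp stretches in it are unique in GRCh37. CHP-902R had its only *WIF1* peak inside the gene, from 65461435 to 65461682 at an alternative TSS (score 112), and LAN-2 and N206 had none. The 300 bases of the shared interval with the most CpG, chr12:65515761-65516060 on the minus strand, hold 23 of them and are shown because this is the promoter interval of the 10 genes that the most lines shared.
WIF1 promoter: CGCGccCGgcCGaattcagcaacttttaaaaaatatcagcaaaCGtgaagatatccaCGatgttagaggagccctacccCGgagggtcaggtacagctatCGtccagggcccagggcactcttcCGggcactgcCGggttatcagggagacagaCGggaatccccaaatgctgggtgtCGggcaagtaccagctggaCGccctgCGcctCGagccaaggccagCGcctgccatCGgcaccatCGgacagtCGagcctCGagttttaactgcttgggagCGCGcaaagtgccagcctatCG

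The covered share of the *WIF1* promoter windows was 12.0% for SK-N-AS, 11.6% for SJNB-1, 11.2% for SH-SY5Y and 10.5% for CLB-GA, against 11.0% for IMR-32, 4.41% for CHP-902R and 0% for LAN-2 and N206. The single copy lines lay close together and above all MNA lines but IMR-32. The means were 11.3% ± 0.611 and 3.86% ± 5.20 (SD, n = 4), and the difference gave p = 0.0571 (exact permutation test, two-sided), with an adjusted p of 1 over all genes. By presence, 4 of 4 single copy and 2 of 4 MNA lines had a promoter peak (Fisher's exact test, two-sided, p = 0.429), and 4 of 4 and 1 of 4 in the canonical window (p = 0.143 in the same exact test, adjusted p = 1). A canonical peak in all 4 single copy lines and at most 1 MNA line was found at 0.221% of the protein-coding genes, 44 genes, a pattern looked up after the *WIF1* values were seen. Each MNA list was longer than each single copy list. Without CHP-902R, 1 of 3 MNA lines had a promoter peak (p = 0.143 in the exact test).

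**Figure D2:**
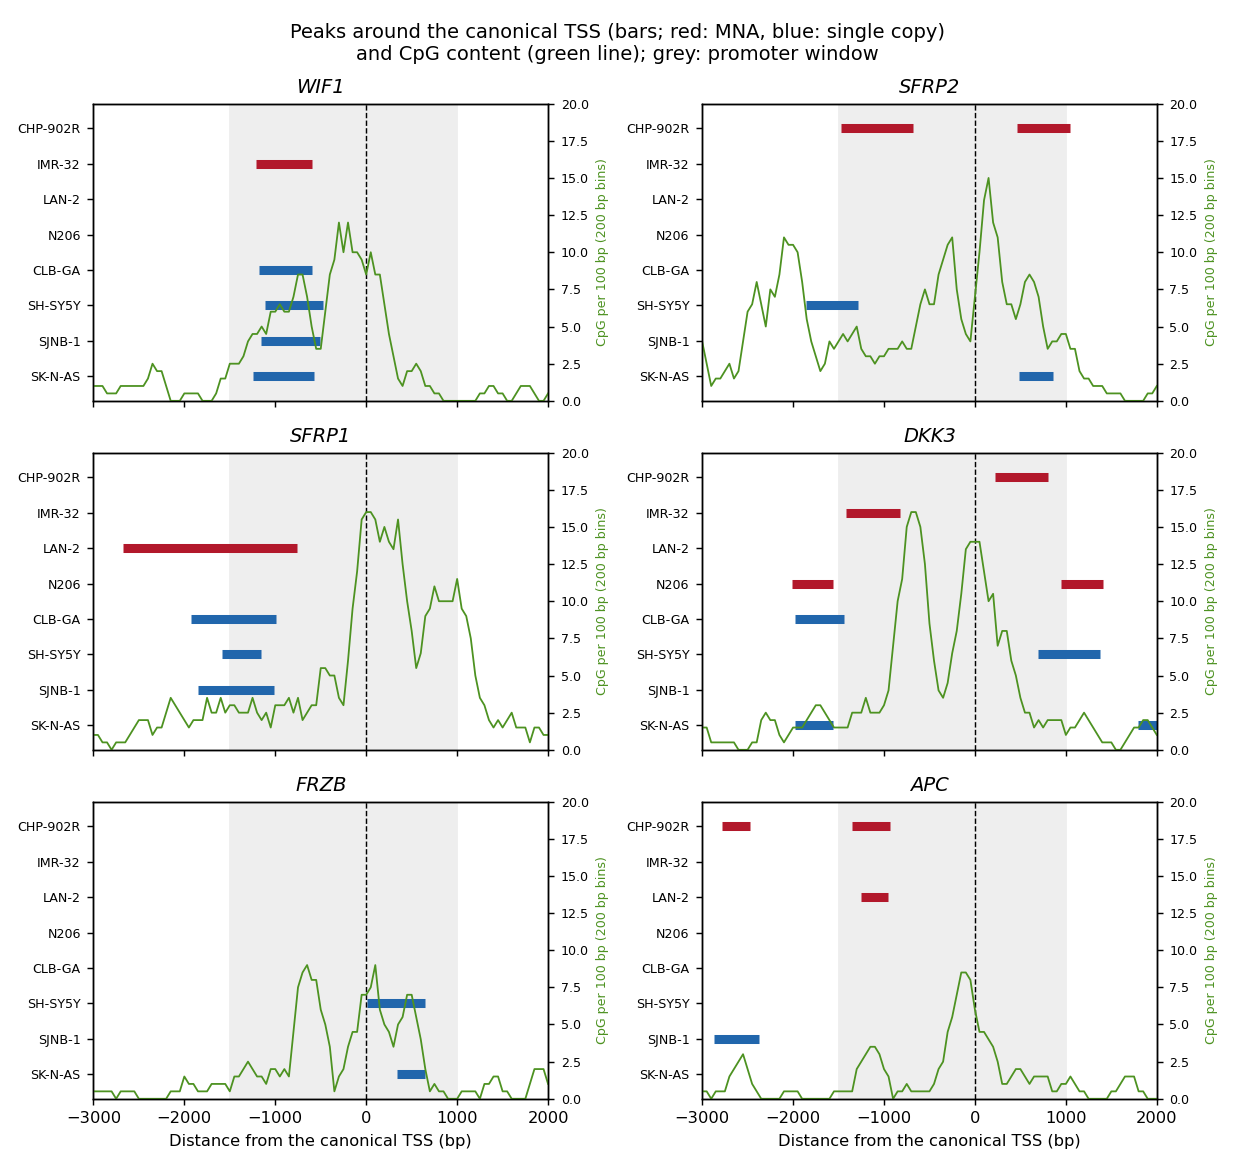
Peaks (bars, left axis by line, red for MNA and blue for single copy) around the canonical TSS of 6 genes by distance in bp, with the promoter window in grey and the CpG content per 100 bp in 200 bp bins as a green line (right axis). At *WIF1* the bars of 5 lines stack up from -1110 to -592 bp, beside the CpG maximum near the TSS, whereas at *DKK3* and *SFRP2* the bars lie at several places.

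The Dickkopf genes showed no common pattern. *DKK3*, the member of the family whose place in WNT signalling is least settled, lies on the minus strand of chromosome 11 (11977754 to 12031316), with 17 annotated TSS. It had a promoter peak in all 8 lines, but not at one place. Of its 14 promoter peaks 5 touched the canonical window, in CHP-902R (222 to 805 bp, score 91.7), in SH-SY5Y (690 to 1370 bp, score 85.9), in N206 (947 to 1409 bp), in IMR-32 (-1417 to -824 bp, score 58.6) and in CLB-GA (-1983 to -1444 bp). The other 9 lay at other TSS. LAN-2 had its promoter peak 38.5 kb and SJNB-1 39.1 kb downstream, in intron 3. The SJNB-1 peak scored 50.3, higher than 0.919% of its list, so the count of 8 lines includes a peak at the lowest scores. The promoter peaks of N206 scored 53.9 and 54.9 and that of CLB-GA 57.3. An upstream interval from -1976 to -1562 bp was shared by N206, CLB-GA and SK-N-AS. Its CpG were sparse, 2.17 per 100 bp, and the stretch of it with the most, chr11:12031822-12032121 on the minus strand, holds 8 CpG in 300 bases, which sets it apart from the *WIF1* and *SFRP2* stretches above.
DKK3 upstream: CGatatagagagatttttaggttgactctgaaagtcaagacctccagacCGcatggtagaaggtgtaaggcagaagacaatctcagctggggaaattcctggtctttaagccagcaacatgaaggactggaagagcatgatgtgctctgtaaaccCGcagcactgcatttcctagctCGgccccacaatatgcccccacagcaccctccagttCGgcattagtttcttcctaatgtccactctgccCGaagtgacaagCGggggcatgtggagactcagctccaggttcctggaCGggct

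The covered share of the *DKK3* promoter windows was 11.5% in CHP-902R, 4.38% in IMR-32, 3.70% in N206 and 3.45% in LAN-2, and 7.66% for SH-SY5Y, 3.96% for CLB-GA, 3.08% for SK-N-AS and 2.50% for SJNB-1. The groups overlapped, with means of 5.77% ± 3.86 and 4.30% ± 2.32 (SD, n = 4; exact permutation test, two-sided, p = 0.514). No *DKK3* promoter peak reached a score of 100, the highest being 91.7. With 1 canonical TSS, 3 MNA and 2 single copy lines had a promoter peak in place of 8 of 8 lines. With lists of equal length, a promoter peak remained in 2 MNA and 4 single copy lines (p = 0.429, Fisher's exact test, two-sided). The list of SJNB-1 was the shortest and was not cut, so its peak could not drop out.

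*DKK1*, which blocks the LRP co-receptors, is on chromosome 10, plus strand (54074041 to 54077802), and had no peak in its promoter windows or gene body in any line. The nearest peak lay between 3.58 kb (LAN-2) and 65.9 kb (SK-N-AS) away. The promoter window held 4.56 CpG per 100 bp, more than in 55.4% of the protein-coding genes, and all its 45 bp stretches are unique in GRCh37. *DKK1* and *SFRP5* are also the shortest of the 10 genes, 3.76 and 5.25 kb long, whereas the median was 50.5 kb. The part of gene length was not tested, and *SFRP2*, at 8.49 kb, had a gene body peak in 5 lines.

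*DKK2*, a second co-receptor ligand on the minus strand of chromosome 4, is the longest of the 10 genes at 362 kb (107842959 to 108204963). It had no promoter peak in any line, and its 41 gene body peaks were spread unevenly, with 11 in LAN-2, 9 in CHP-902R, 3 in IMR-32 and 1 in N206 among the MNA lines, and 16 for SK-N-AS, 1 for SJNB-1 and 0 for SH-SY5Y and CLB-GA. All 4 MNA lines and 2 single copy lines thus had a gene body peak (Fisher's exact test, two-sided, p = 0.429). A gene body peak in all 4 MNA and at most 2 single copy lines was found at 3.3% of the protein-coding genes. Of the 41 peaks 11 lay within the canonical transcript and 30 upstream of it, inside longer annotated transcripts. A region upstream was shared by the 4 MNA lines and SK-N-AS, with a common interval from 107994179 to 107994456, -36986 to -36709 bp from the canonical TSS, and 5.04 CpG per 100 bp. The scores there were 97.4 in IMR-32, 91.3 in SK-N-AS, 91.2 in LAN-2, 71.6 in N206 and 56.6 in CHP-902R. For N206 it was the only peak at the gene. The 4 of 4 MNA against 1 of 4 single copy lines gave p = 0.143 (Fisher's exact test, two-sided) and an adjusted p of 1 over all merged regions. How many merged regions show this pattern was not counted.

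*APC*, the scaffold of the beta-catenin destruction complex, is on chromosome 5, plus strand (112043215 to 112181936). Its canonical promoter had a peak in 2 MNA lines, in CHP-902R from -1351 to -936 bp (score 59.5, higher than 26.0% of the list) and in LAN-2 from -1249 to -952 bp (score 61.0, 23.8%). Both were weak peaks of their lists and lay upstream of the CpG maximum of the promoter, and no line had a peak in the windows of the other TSS, the most upstream TSS included. Peaks covered 5.37% of the promoter windows in CHP-902R, 3.85% in LAN-2 and 0% in the other 6 lines. With 2 of 4 MNA and 0 of 4 single copy lines the Fisher's exact test, two-sided gave p = 0.429, and the means of 2.30% ± 2.73 and 0% gave p = 0.429 in the exact permutation test, two-sided. With lists of equal length neither peak remained, and *APC* had a promoter peak in 0 lines of either group. Of the 45 bp stretches in the interval shared by both peaks, 53.5% occur once in GRCh37.

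All 8 lines had gene body peaks at *APC*, 50 peaks at the locus in all, with 11 in LAN-2, 7 in CHP-902R and N206 and 3 in IMR-32, and 10 for SK-N-AS, 5 for SH-SY5Y, 4 for CLB-GA and 3 for SJNB-1. They fell into 27 merged regions, 16 of them in introns only. In the stretch between the most upstream TSS and the canonical one, 2 regions were found in 3 MNA lines and no single copy line, the first from -16747 to -16407 bp in CHP-902R, IMR-32 and N206, and the next from -3920 to -3652 bp in IMR-32, LAN-2 and N206. Each gave p = 0.143 (Fisher's exact test, two-sided, adjusted p = 1). The share of all merged regions with this pattern was not counted, and each MNA list was longer than each single copy list. Of the 45 bp stretches, 64.3% in the first interval and 100% in the next occur once in GRCh37. The region with the most lines lay in intron 2, from 20427 to 20964 bp downstream, in CHP-902R, LAN-2, N206 and SH-SY5Y, and held 3.90 CpG per 100 bp.

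**Figure D3:**
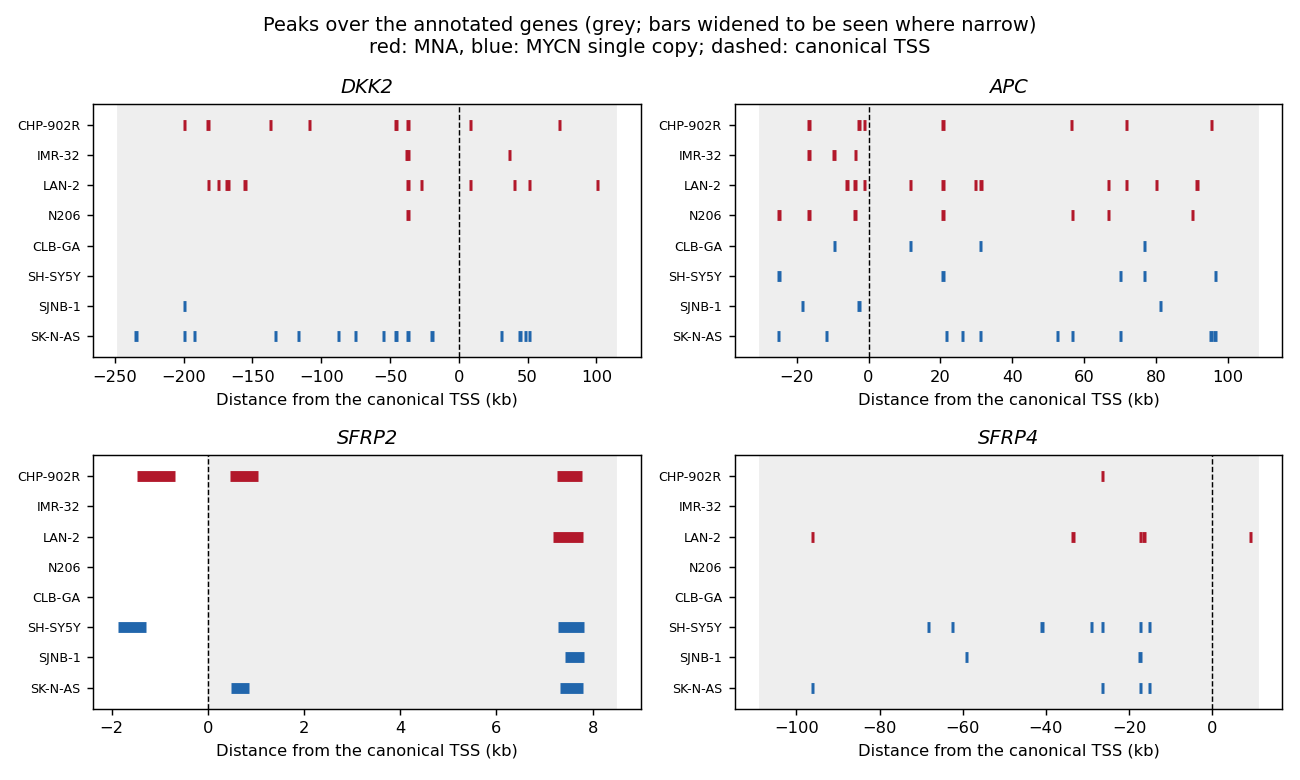
Peaks (bars, red for MNA and blue for single copy lines) over the annotated gene (grey) of *DKK2*, *APC*, *SFRP2* and *SFRP4*, by distance in kb from the canonical TSS (dashed). At *DKK2* the 4 MNA lines and SK-N-AS line up near -37.0 kb and SK-N-AS has 16 bars in all, whereas at *SFRP2* 5 lines line up near 7.42 to 7.78 kb.

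Taking all loci, the 180 peaks of the 8 genes with peaks formed 108 merged regions. A single line had a peak in 64 of them, at least 2 lines in 44 (40.7%), against 43.8% of all merged regions of the genome, and at least 5 lines in 4 (3.70%), against 6.5%. These 4 were the upstream region of *SFRP1*, exon 3 of *SFRP2*, the distant region of *DKK2* and the upstream region of *WIF1*. These shares were not tested.

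The promoter peaks were also placed against the part of the promoter richest in CpG. For each gene, the 500 bases with the most CpG were found in the canonical window. In 21 pairs of a gene and a line with a canonical promoter peak, the peak touched these bases in 5 (23.8%), namely *SFRP2* in CHP-902R and SK-N-AS, *FRZB* in SH-SY5Y and SK-N-AS, and *DKK3* in IMR-32. In the same measure over all protein-coding genes it was 37.8% of the pairs. At *WIF1* (5 lines), *SFRP1* (4 lines) and *APC* (2 lines) no peak touched them. At *WIF1* they lie from -399 to 100 bp, and at *SFRP1* from -96 to 403 bp with 15.4 CpG per 100 bp. The pairs share genes and lines, so no test was made. By CpG content of the canonical window, *APC* fell in the lowest of 3 equal classes of the protein-coding genes and had a peak, as did 40.9% of that class. *DKK1*, *DKK2*, *FRZB*, *SFRP4* and *WIF1* fell in the middle class, 2 of them with a peak in at least 1 line against 53%, and *DKK3*, *SFRP1*, *SFRP2* and *SFRP5* in the highest, 3 of them with a peak against 53.8%. Among these genes, peaks were thus absent at the CpG-rich window of *SFRP5* and present at the CpG-poor one of *APC*.

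Between the *MYCN* groups none of the 10 genes passed a threshold, by any measure of the promoter. With 4 lines against 4, the smallest two-sided p is 0.0286 in Fisher's exact test and in the exact permutation test. The permutation test of the covered share can reach it with peaks in lines of both groups. Fisher's exact test reaches this p only with a peak in 4 of 4 against 0 of 4 lines. Over all genes, 0.146% reached it with more MNA lines and 0.0512% with more single copy lines, which is 94 and 33 genes of 64486, and after Benjamini-Hochberg adjustment 0% passed the threshold by Fisher's exact test, two-sided. For the covered share of the promoter windows, 436 of the 35865 genes with any cover (1.22%) had an unadjusted p under 0.05 by the exact permutation test, two-sided, and 0% after adjustment. With so few lines an adjusted p could pass only if a large part of all genes reached the smallest p, so these zeros were set by the design. None of the 10 genes was among either set, the lowest unadjusted p being that of *WIF1*, 0.0571. *WIF1* and *FRZB* had promoter peaks in more single copy lines and *APC* in more MNA lines, but none of these differences passed the test, and a p over the threshold does not show that the groups are alike. The number of peaks in a list, higher in each MNA line than in each single copy line, moved with the groups. With lists of equal length, the lines with a promoter peak stayed at 2 MNA and 4 single copy for *WIF1* and at 0 and 2 for *FRZB*, whereas for *APC* they went from 2 and 0 to 0 and 0. Without CHP-902R, the promoter peak of *SFRP2* was found in 0 of 3 MNA and 2 of 4 single copy lines.

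**Figure D4:**
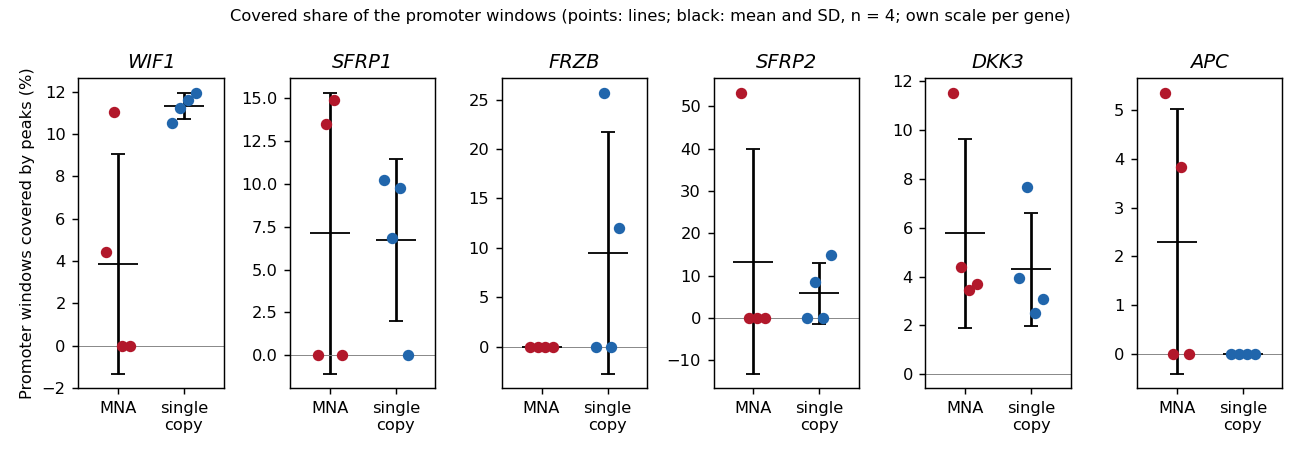
Percent of the promoter windows covered by peaks in each line (points, red for MNA, blue for single copy), with the mean and SD of each group in black (n = 4) and an own scale for each gene. The single copy lines lie between 10.5% and 12.0% at *WIF1*, with IMR-32 beside them at 11.0%, and in the other 5 panels the groups overlap or share values of 0%.

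Other genes of the pathway were counted from lists of 82 genes. A promoter peak in at least 1 line was found for 62 of them (75.6%) and in at least 4 lines for 36 (43.9%), beside 73.9% and 39.5% of all protein-coding genes. Among the WNT ligands it was 16 of 19 in at least 1 line and 8 in at least 4, among the receptors 9 and 7 of 15, among other inhibitors 12 and 7 of 15, among the enhancers of the signal (the R-spondins, their LGR receptors and norrin) 3 and 2 of 8, among the cytoplasmic genes 10 and 6 of 12 and among the nuclear factors 12 and 6 of 13. These counts take any TSS. In the canonical window alone, 43 of the 82 had a peak in at least 1 line and 11 in at least 4. It was 6 and 3 for the 10 genes. A canonical peak in at least 1 line was found for 49.2% of the protein-coding genes. The share of them with one in at least 4 lines was not counted, so the canonical counts for at least 4 lines stand without a background. By list the canonical counts were 12 and 4 for the ligands, 8 and 4 for the receptors and 11 and 2 for other inhibitors. They were 2 and 0 for the enhancers, 7 and 0 for the cytoplasmic genes and 3 and 1 for the nuclear factors. With any TSS again, none of the 82 had an unadjusted p under 0.05 between the *MYCN* groups in either direction. A peak in all 8 lines was found for *WNT2B*, *WNT5A* and *WNT5B* among the ligands, the receptor gene *RYK*, *LGR6*, the scaffold gene *AXIN2* and the transcription factor gene *TCF7*. *FZD2* and *FZD9*, Frizzled receptor genes with 1 TSS each, and *KREMEN1*, whose protein works with DKK1 at the LRP co-receptors, had one in 7 lines. So did *LRP6*, *TCF7L1* and *TLE3*. At *WNT5A* and *WNT5B* 0 of these lines had the peak in the canonical window, whereas at *FZD2* and *FZD9* all 7 did, so that these 2 receptor promoters were marked in more lines than any canonical promoter of the 9 antagonist genes or of *APC*.

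**Figure D5:**
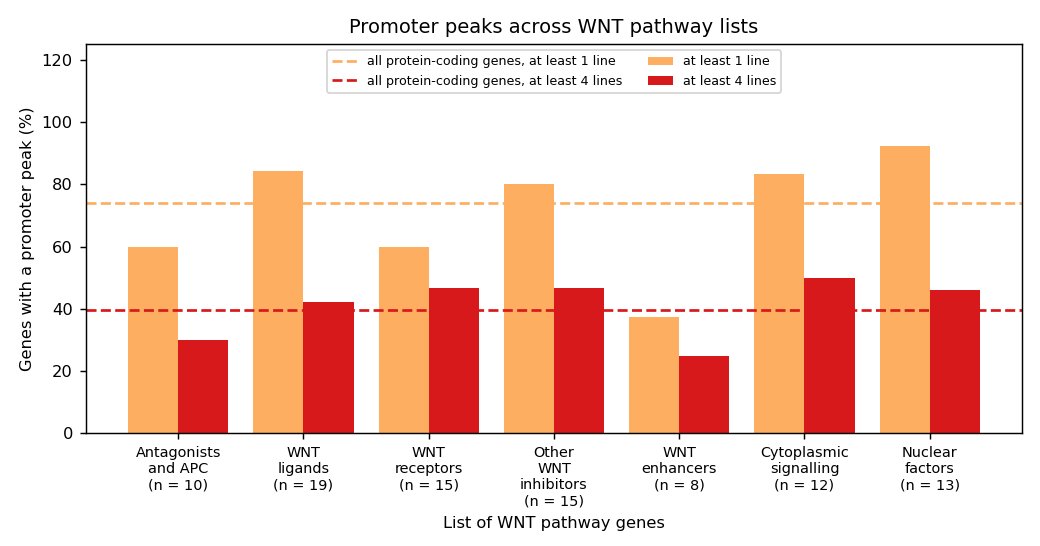
Percent of the genes of each WNT list with a promoter peak in at least 1 line (light bars) and in at least 4 lines (dark bars), with the same percentages over all protein-coding genes (73.9% and 39.5%) as dashed lines. The antagonists with *APC* stand at 60% and 30%, the ligands at 84.2% and 42.1%. Peaks at any TSS are counted, not those of the canonical window alone.

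The genes whose covered promoter share followed that of a member most closely over the 8 lines were *RBM25* (Pearson's r = 0.978) and *CAD* (r = 0.976) for *SFRP1*, *ACSM3* (r = 0.987) and *GALC* (r = 0.987) for *SFRP2*, *NXPH4* (r = 0.983) and *PRKX* (r = 0.982) for *DKK3*, and *GLUD1* (r = 0.952) and *PRIMA1* (r = 0.952) for *WIF1*. These are the 2 highest of all protein-coding genes for each, over 8 points that share the libraries and hold several values of 0, and are given as a description. *CAD* had a peak in the same 5 lines as *SFRP1*, and *GALC* in the same 3 as *SFRP2*. *PRIMA1* had one in the same 6 as *WIF1*. Such matches were not rare. Exactly the same lines had a promoter peak at 39 other protein-coding genes for *SFRP1*, 30 for *SFRP2* and 59 for *WIF1*. The lines with a peak differed for the rest. *RBM25* had a peak in all 8 lines, and *GLUD1* had one in N206, where *WIF1* had none. *NXPH4* and *PRKX* had one in CHP-902R and SH-SY5Y alone, whereas *DKK3* had one in all 8. *ACSM3* rests on CHP-902R and SK-N-AS alone, and for *SFRP2* the value of CHP-902R stands far above the rest.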

How the data were processed

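Methylated DNA of 8 NB cell lines was measured by MBD-seq, 1 sample a line. By the sample labels 4 are MNA and 4 carry *MYCN* as single copy. The authors captured sheared DNA, mapped paired-end reads to GRCh37 (Bowtie 0.12.7) and ran MACS separately for each line, per the submitters' processing notes and the methods. The options of the peak calling and an input control are not given in the sources used here. The deposited lists hold a position and a score per peak, where the score is the authors' value from the p-value of MACS and was used only to rank or filter peaks within 1 list. Of 711234 peaks 0 ended beyond their chromosome in GRCh37.

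Genes and TSS were those of GENCODE release 44 in GRCh37 coordinates. Promoter windows, gene bodies and merged regions (overlapping peaks of all lines) were computed with Python 3.11.15, numpy 2.4.6, scipy 1.17.1 and pysam 0.24.0. The uniqueness of 45 bp stretches was found with numba 0.67.0. Groups were compared over all 64486 genes with Fisher's exact tests (two-sided) and with exact permutation tests (two-sided) over 70 relabellings of the lines, with Benjamini-Hochberg adjustment over all genes tested. The tests were tested on simulated data. Sequences were read from the GRCh37 genome.

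The 10 genes and the lists were chosen with earlier results of these data known. The genes named are the 10 and the pathway genes with a promoter peak in at least 6 lines. Of the latter at most 10 were taken, by number of lines and then by symbol, and those tied at 7 lines were added. For each of the 10 with a promoter peak in 3 or more lines, the 2 genes most like it are also named. A printed promoter sequence is the stretch of at most 300 bases with the most CpG in the interval shared by most lines. The stretch that this rule gives for *APC* is not reported here. The tests of merged regions and gene bodies, the 500 bases with the most CpG, the classes of CpG content, the sequences of *SFRP5* and of exon 3 of *SFRP2*, and the shares of genes with the pattern of *WIF1* or *DKK2* were chosen after values were seen. Alternatives were a minimum score of 100, lists cut to the length of the shortest (70816 top-scoring peaks), the midpoint of a peak as its position, a window ending 500 bp downstream, the canonical TSS alone, TSS of protein-coding transcripts, merging of peaks less than 500 bp apart, and leaving out 1 line at a time. The sequence tag counts, arrays after drug treatment and MSP data of the study were not analysed here.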

Additional observations from a re-analysis of the deposited data

Results flagged for a closer look

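In 33 groups of 4 lines (the number of peaks at a gene, the covered share of its promoter windows and the counts over the 10 genes, by *MYCN* group, where the 4 values were not all equal), 3 held a line that stood apart, that is, its gap to the nearest line divided by the range of the group was above Dixon's critical value. For normally distributed values chance alone would give about 1 in 20. These groups hold small counts and shares with many values of 0, so that rate does not apply to them as it stands. SK-N-AS had 16 peaks at *DKK2*, where the other single copy lines had 0 to 1 (ratio 0.938). Peaks covered 53.3% of the promoter window of *SFRP2* in CHP-902R and 0% in the other MNA lines (ratio 1), where any single line with a peak among 4 reaches that ratio. They covered 11.5% of the promoter windows of *DKK3* in CHP-902R, against 3.45% to 4.38% in the other MNA lines (ratio 0.885). SK-N-AS also had the most peaks over the 10 genes together, 42, of which the 16 at *DKK2* are a part. Its list of 86079 peaks was the longest of the single copy lines and shorter than that of each MNA line.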

How the results depend on the processing

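Results moved most with a score minimum and with equal lists. When only peaks scoring 100 or more were kept, the genes with a promoter peak per line fell from 3.25 ± 1.16 to 0.625 ± 0.518 (SD, n = 8), those with one in at least 1 line from 6 to 3 and those with one in at least 4 lines from 3 to 0. Of all annotated genes, those with any promoter cover fell from 35865 to 14153 at this minimum. The difference at *SFRP1*, MNA minus single copy share of lines, then turned from -25 to 25 percentage points, 1 line against 0 (p = 1, Fisher's exact test, two-sided), and those at *SFRP2* and *APC* became 0. With lists of equal length, the difference at *APC* went from 50 to 0, that at *SFRP1* from -25 to 0 and that at *DKK3* from 0 to -50, and the genes with a promoter peak per MNA line fell from 2.75 to 1.75. Of all annotated genes, those with any promoter cover fell from 35865 to 33061, and their share per line was not counted. *SFRP2* went to 0 with the peak midpoint and *DKK3* to 25 with the canonical TSS. The other 142 of 150 differences of single genes kept their direction, where a difference that stayed at 0 was counted as kept. *SFRP4*, *SFRP5*, *DKK1* and *DKK2* had no promoter peak in any line, and their differences were 0 in every setting. The count of 142 is therefore no measure of stability. All 150 stayed over the threshold. For *WIF1* and *FRZB* the direction was kept under all alternatives. At an unadjusted p under 0.05 there were 27 to 322 genes by Fisher's exact test (127 as reported) and 67 to 620 by the exact permutation test (436 as reported). After adjustment there were 0 in each setting, which the small number of lines fixes and which says nothing on stability. No paired analysis was possible because the replicate numbers pair no lines across the groups. With no counts, depth limits what a missing peak shows.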
